A study of Drosophila melanogaster with 16 samples.

Results

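The 7 arrays of the air time course follow heads of adult male fruit flies over the hours after a sham exposure, and they make up 7 of the 16 arrays of a series on ethanol in Drosophila melanogaster. Each air array was made from males of the Berlin background, 2 to 4 days old, that spent 30 min in a stream of humidified air in a perforated tube and then recovered in food vials before freezing, for 0, 30, 60 or 90 min or, in the later pools, for 120, 180 or 210 min. The members were chosen by their exposure label, and the arrays at 30, 90, 180 and 210 min were also fitted alone because those at 0, 60 and 120 min carried transcripts of body tissue. A further 7 pools breathed saturated ethanol vapor brought to 60% with air and were frozen at the same recovery times, and 2 arrays, A and B, came from flies that were not exposed at all. For each exposure and time, 3 groups of 200 males were joined before RNA extraction and hybridized to a single array, so no time has a replicate pool. Values are log2 expression on Affymetrix arrays, changes with recovery are slopes in log2 units per hour, and p-values measure the scatter of arrays around a straight line in time. A gene was called at adjusted p under 0.05.

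Air controls in a vapor experiment are not at rest. The flies are moved into tubes, held in an air stream and returned to food, and the clock runs on while they recover. In the fly clock, the CLOCK and CYCLE proteins switch on period and timeless, whose proteins later shut off CLOCK and CYCLE, while vrille and Pdp1 act on the Clk gene in a second loop. Fly immune defence acts through the Toll and Imd pathways, which switch on genes for secreted antimicrobial peptides, chiefly in fat body. Activity-regulated genes such as Hr38 and stripe (sr) are transcribed within minutes to hours of neuronal firing. Pool and time since handling changed together with recovery time here and cannot be told apart from it. The clock time of collection and the hybridization order are not given in the sources used here, so neither can be separated from recovery time.

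The tissue content of the air arrays was checked first. The 20 male reproductive genes and 10 gut genes measured averaged 5.26 log2 above unexposed heads at 0 min of recovery, 3.90 at 60 min and 4.54 at 120 min, and between 0.0020 and 0.054 at the other 4 times. They are 20 of 38 and 10 of 37 listed genes on the array. Members such as Acp36DE passed the filter at log2 4 only through the arrays with body tissue. The size of these averages therefore rests on genes selected by the same arrays. The seminal fluid gene SP (sex peptide) stood at 6.99, 2.14, 5.86, 2.14, 5.42, 2.15 and 2.14 from 0 to 210 min, with 2.15 and 2.13 in the unexposed arrays. The gut protease gene Jon65Aiv stood at 9.66, 7.92 and 8.93 at 0, 60 and 120 min and between 1.95 and 1.96 at the other times. With those arrays in the first part of the course, the reproductive list had a median slope of -0.91 per hour and the gut list of -1.05 over 7 arrays, against 0.00 for each over the 4 arrays at 30, 90, 180 and 210 min. In those 4 arrays SP and Jon65Aiv lie under the filter at log2 4, so slopes of 0.00 there come from values near background. Neither list had a called gene in either fit.

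**Figure D1:**
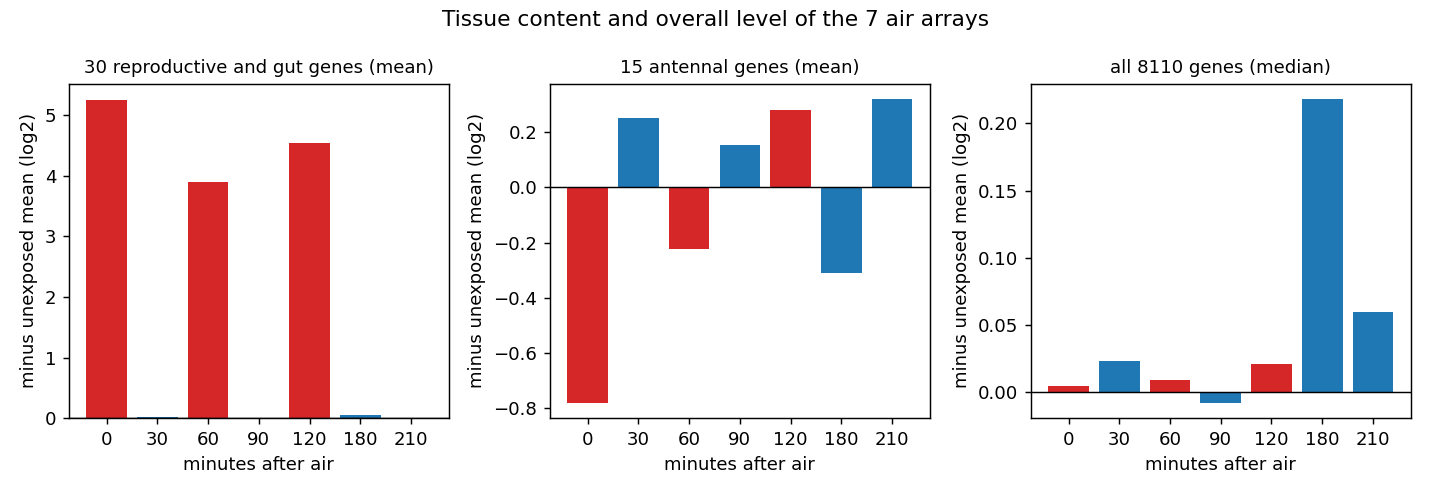
Mean of 30 male reproductive and gut genes, mean of 15 antennal genes and median of all 8110 genes in each air array, each as log2 difference from the unexposed mean, with the 0, 60 and 120 min arrays in red. Body-tissue genes reach 3.90 to 5.26 in the red bars, antennal genes swing between -0.78 and 0.32, and the 180 min array stands 0.22 above unexposed over the median gene.

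Head cell types varied less. The 15 antennal genes averaged -0.78 log2 against unexposed at 0 min, 0.25 at 30 min, -0.22 at 60 min, 0.15 at 90 min, 0.28 at 120 min, -0.31 at 180 min and 0.32 at 210 min. The levels went up and down between neighbouring times, and their median slope was 0.16 per hour over 7 arrays but -0.07 over 4, with 0 of 15 at unadjusted p under 0.05 in either. The defining marker of most smelling neurons, Orco, was measured at 3.89 at 0 min and between 4.51 and 5.58 after that. Glial repo (9.75 to 10.40), neuronal nSyb (9.57 to 10.39) and hemocyte Hml (8.93 to 9.21) were well above the filter in every air array. Of the muscle genes, 19 were measured, and 2 sloped up in air at unadjusted p under 0.05, beside 9.04% of all genes. Their median slope was 0.05 over 7 arrays and, with 0 of 19 at that p, 0.02 over 4. The rhodopsin gene ninaE and the muscle myosin gene Mhc have no probe set with a single symbol here and could not be used. In the head fat body list, the mean of 1.01 at 0 min came from Cyp4g1, an oenocyte cytochrome P450 gene at 12.65, 11.71 and 11.71 in the 0, 60 and 120 min arrays and at most 5.36 in the others; the list's median difference at 0 min was 0.11. In whole heads, fewer cells of a type and less RNA per cell cannot be told apart.

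Over the 7 air arrays 0 of 8110 genes were called by limma (0%), and 822 (10.1%) had an unadjusted p under 0.05, of which 733 (9.04%) sloped up and 89 (1.1%) down. The smallest adjusted p was 0.164. Over the 4 arrays free of body tissue 0 genes were called (0%) and 316 (3.9%) had an unadjusted p under 0.05, 248 up (3.06%) and 68 down (0.838%), with a smallest adjusted p of 0.54. In all, 243 genes had an unadjusted p under 0.05 with the same sign in both fits, which share 4 arrays. At 180 min the median gene stood 0.22 log2 above unexposed, against -0.01 to 0.06 in the other air arrays, and 80.5% of all slopes were positive. The median slope of 0.04 per hour became 0.02 without the 180 min array, 0.06 without that at 210 min and 0.0035 after quantile normalization, where 617 genes had an unadjusted p under 0.05. The 7-array count of 822 was 857 without the 180 min array, 1345 without that at 210 min and 615 to 794 without any other. The 4-array count of 316 was 100 with the 30 min array left out and 136 with that of 90 min left out, against 700 for 180 min and 1019 for 210 min. Slopes near 0.04 per hour are therefore at the level of the median gene.

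**Figure D2:**
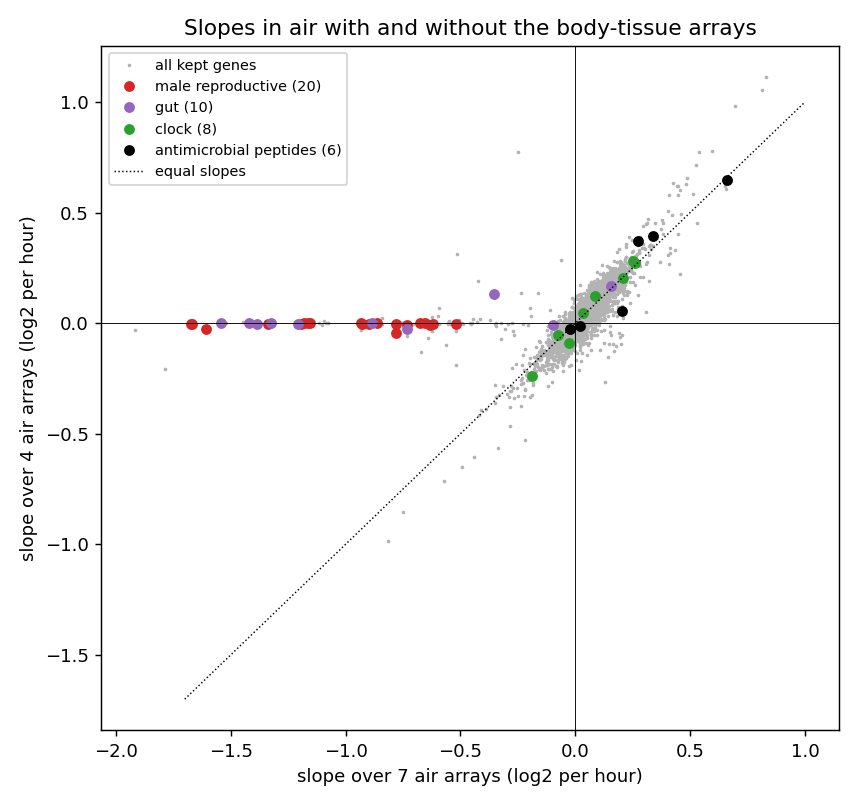
Slope of each of 8110 genes in log2 per hour over all 7 air arrays (horizontal) and over the 4 arrays at 30, 90, 180 and 210 min (vertical), with 4 gene lists coloured. Most reproductive and gut genes lie on the horizontal zero line at slopes down to below -1, while clock and antimicrobial peptide genes lie near the line of equal slopes.

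The ethanol arm gives independent pools at the same times. There, 262 genes were called over 7 arrays (3.23%), 119 rising (1.47%) and 143 falling (1.76%). Of the 119 that rose after ethanol, 115 had a positive slope in air, where 80.5% of all genes did, and of the 143 that fell, 74 had a negative one. A single slope shared by air and ethanol over 14 arrays, a fit added after the air slopes had been seen, called 346 genes (4.27%), 290 rising (3.58%) and 56 falling (0.691%). With quantile normalization the split was 159 rising and 99 falling. Its p-values treat the air and ethanol arrays of one time as independent, which was not shown. With the time point as a replicate block, which averages both arms at each time, 33 genes were called (22 rising, 11 falling) and 1243 had an unadjusted p under 0.05. Below, a gene is said to have risen or fallen only where this shared slope, or another named test, passed. This fit puts 1 slope on both arms, so a gene can pass mainly through 1 of them. Below, "over both arms" means this shared slope and not a rise or fall seen in each arm. A pass does not show a change particular to air. Of the genes named below, Slob, Drs, BomBc3, CG13606, Arpc1, CG4269, betaTub60D, Sik2, GstD2 and CG7675 were also called with the block, at adjusted p between 0.0044 (BomBc3) and 0.0396 (CG13606). The other shared calls named below were not, at adjusted p from 0.0578 (GstE6) to 0.192 (Usp8, VGlut). Of the 19 muscle genes 4 were called upward on the shared slope (Tm2, Obsc, Zasp52 and tn), 12 sloped up and 0 down at unadjusted p under 0.05, and the median was 0.07 against 0.01 for all genes. Of all 8110 genes 3.58% were called upward, and 1110 sloped up and 389 down at unadjusted p under 0.05. After ethanol alone 4 of 19 were called upward, beside 1.47% of all genes, with a median of 0.10. Whether muscle content had a part in the other shared rises was not tested. The count of 346 was 121 without the 3 air arrays and 1 ethanol array that carried body-tissue transcripts, and 0 over the 8 arrays at the 4 other times, where 1174 genes had an unadjusted p under 0.05.

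Of the 8 core clock genes, all measured, 2 (per and tim) rose over both arms, beside 3.58% of all genes, and 0 were called in air alone. The transcription repressor gene per (X chromosome) stood at 7.76, 7.89, 8.22, 8.01, 8.64, 8.66 and 8.58 log2 from 0 to 210 min after air, with 8.68 and 8.42 in the unexposed arrays. All 4 arrays up to 90 min lay below both unexposed arrays, and the 3 later ones lay between them. Its slope in air was 0.26 per hour (SE 0.06, adjusted p = 0.30 by limma) over 7 arrays and 0.27 over 4. After ethanol the slope was 0.24, and per rose over both arms by 0.25 per hour (SE 0.04, adjusted p = 0.0114).

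The partner gene tim (chromosome 2L), whose protein binds PER and is broken down in light, stood at a lower and a higher level. It was measured at 10.91, 10.96, 10.95 and 10.82 at 0 to 90 min after air and at 11.56, 11.68 and 11.61 at 120 to 210 min. The first 4 values did not overlap the last 3, and all but that at 180 min lay below both unexposed arrays (11.83 and 11.65). The slope in air was 0.25 per hour (SE 0.06, adjusted p = 0.335) and that after ethanol 0.23 (adjusted p = 0.0402), and the shared rise was 0.24 (SE 0.04, adjusted p = 0.0066). The shared calls of per and tim held with each of the 14 arrays left out in turn and without the 4 body-tissue arrays (adjusted p = 0.0476 and 0.0288), but not over the 8 arrays at 4 times (0.166 and 0.143) or with the time point as a block (0.10 and 0.08).

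Of the other core genes, 2 had an unadjusted p under 0.05 in air. Pdp1, a transcriptional activator of the second loop, ran from 10.30 at 0 min to 11.28 at 180 min and 10.66 at 210 min, with a slope of 0.21 (adjusted p = 0.42), and its unexposed levels of 11.33 and 11.12 lay above 6 of the 7 air arrays. Clk, which encodes the activator of per and tim, ran the other way, from 6.01 and 6.36 at 0 and 30 min to 5.31 at 120 min and 5.67 at 210 min, with a slope of -0.19 (adjusted p = 0.47). Neither passed over both arms (adjusted p = 0.134 and 0.33). The slopes of vri (0.03), cyc (-0.03), cwo (0.09) and cry, the blue-light receptor gene (-0.07), had unadjusted p of 0.516, 0.662, 0.23 and 0.236. For vri the slope after ethanol was -0.26, and the difference between the arms did not pass (adjusted p = 0.21). The list as a whole thus had 3 upward and 1 downward slope of 8 at unadjusted p under 0.05, beside 9.04% and 1.1% of all genes, and a median slope of 0.06 against 0.04.

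**Figure D3:**
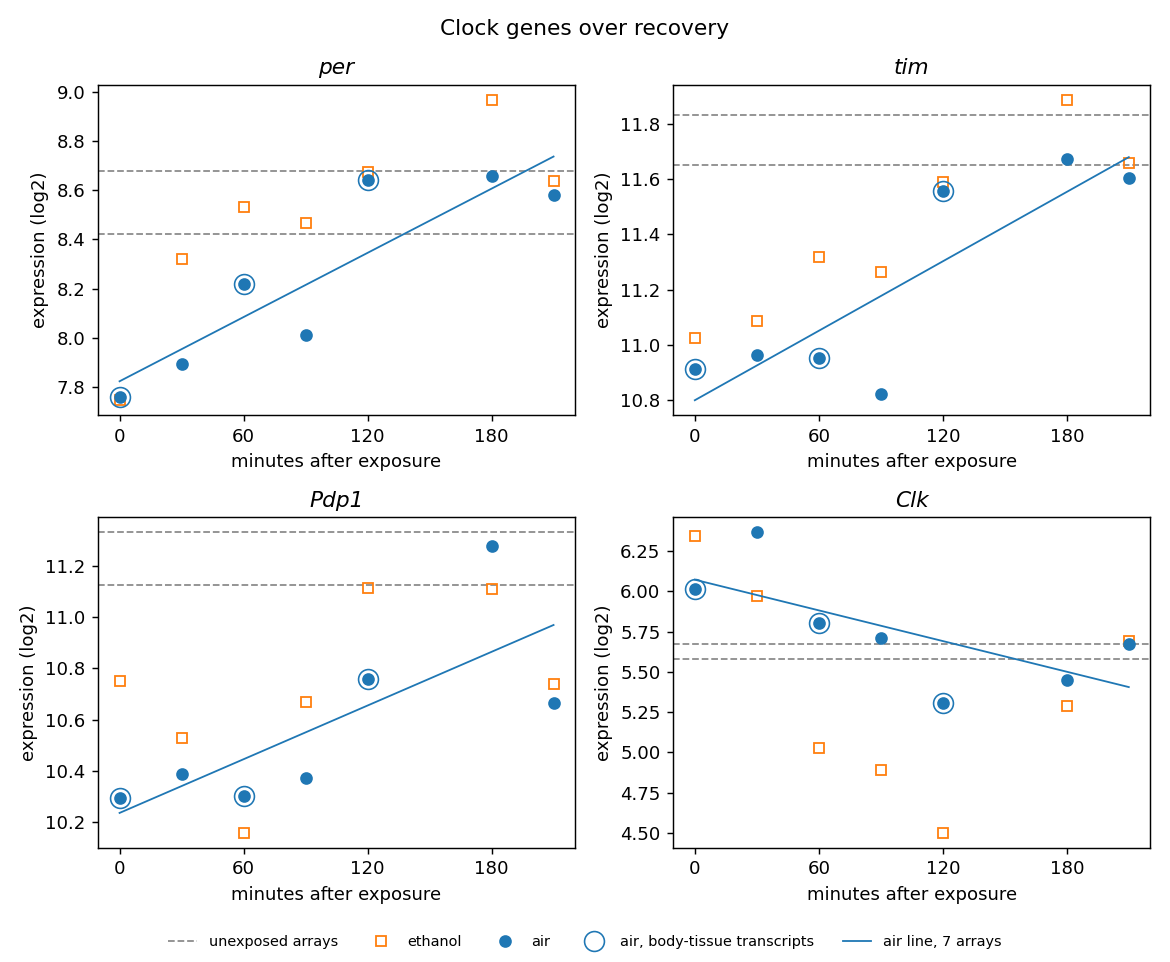
Expression in log2 of per, tim, Pdp1 and Clk against minutes after exposure in air (filled), ethanol (open squares) and the 2 unexposed arrays (dashed), with the fitted line through the 7 air arrays and rings on those with body-tissue transcripts. In air, per and tim lie below both dashed lines up to 90 min and near them from 120 min.

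Genes around the clock were scored from 2 further lists. Slob, which binds the Slowpoke potassium channel and cycles with the clock in heads, stood at 10.27, 10.05, 10.47, 10.37, 10.52, 10.64 and 10.78 after air, with 10.81 and 10.59 unexposed. It had a slope of 0.17 in air and 0.24 after ethanol, and rose over both arms by 0.20 per hour (SE 0.03, adjusted p = 0.0052), a call kept in each of the 14 fits without 1 array. Usp8, a deubiquitinase gene that acts on CLOCK, rose by 0.16 per hour (adjusted p = 0.0429), although the call was lost without the 4 body-tissue arrays (0.181). The phosphatase subunit gene wdb had a slope of 0.15 in air and -0.10 after ethanol. Among 14 genes measured from the clock regulator list, 2 upward slopes and 1 downward slope had an unadjusted p under 0.05 in air. The lowest slope of that list, -0.23, was that of Tdh, a threonine dehydrogenase gene. The downward count is therefore not read as one of clock regulators. Among 8 clock outputs 2 upward slopes had an unadjusted p under 0.05 in air. The shares over all genes were 9.04% upward and 1.1% downward.

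Antimicrobial peptide genes had the highest median slope in air of the 38 lists. Of 21 antimicrobial peptide genes written in the list, 11 are on the array with a probe set of their own and 6 passed the expression filter. The Imd target gene DptB (diptericin B; chromosome 2R) stood at 8.64, 8.64, 8.90, 10.10, 9.82, 10.12 and 11.03 from 0 to 210 min, while unexposed heads held 8.54 and 7.95. Its 3 lowest values were the first 3 and its highest was the last, and all 7 lay above both unexposed arrays. The slope was 0.66 per hour over 7 arrays (SE 0.10, adjusted p = 0.164) and 0.65 over 4. At 210 min the air line stood 2.59 above unexposed (SE 0.32, adjusted p = 0.0416). After ethanol the levels of DptB were 10.03, 8.68, 9.99, 8.99, 8.04, 9.32 and 10.31, in no order, with a slope of 0.06; the difference in slope did not pass (-0.60, adjusted p = 0.41).

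Mtk, which encodes the antifungal peptide metchnikowin, stood at 11.01, 10.78, 10.99, 11.46, 11.53, 11.39 and 12.32 after air and 10.72 and 10.26 unexposed. Its slope in air was 0.34 (SE 0.08, adjusted p = 0.335), and the level in all 7 air arrays exceeded both unexposed values. Drs, the Toll target gene for drosomycin, ran from 10.04 at 0 min to 11.11 at 180 min and 10.69 at 210 min. It had a slope of 0.27 in air and 0.40 after ethanol and rose over both arms by 0.33 per hour (SE 0.07, adjusted p = 0.0214). The unexposed arrays, at 11.28 and 10.28, enclosed 4 of the 7 air values, and the other 3 lay below both. Def (0.20), Drsl4 (0.02) and Drsl5 (-0.02) had unadjusted p of 0.226, 0.771 and 0.694, and Def lay under log2 4 in 5 of the 7 air arrays. The list's count was 3 of 6 upward slopes at unadjusted p under 0.05 beside 9.04% of all genes, and its median slope 0.24 against 0.04.

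Bomanins are short secreted peptides switched on by Toll, and 8 of the 14 listed were measured. BomBc3 stood at 9.80, 9.64, 10.11, 10.22, 10.35, 10.54 and 10.66 after air and 10.25 and 9.99 unexposed, climbing at each step but the first. The slope was 0.28 in air (SE 0.04, adjusted p = 0.164) and 0.59 after ethanol (adjusted p = 0.0058), and the shared rise was 0.44 (SE 0.05, adjusted p = 0.0019). BomS2 rose by 0.17 per hour over both arms (adjusted p = 0.0102) and BomBc2 by 0.14 (adjusted p = 0.0208), from slopes in air of 0.11 and 0.09. These 3 of 8 were the listed Bomanins with an unadjusted p under 0.05 in air, all upward, beside 9.04% of all genes. The list's median slope in air was 0.07. Over both arms 3 of 8 were called upward and 0 downward, beside 3.58% and 0.691% of all genes. At unadjusted p under 0.05, 5 sloped up and 1 down over both arms, beside 1110 and 389 of all 8110 genes. BomS6 had a slope of 0.01 in air, -0.22 after ethanol (limma adjusted p = 0.0457) and -0.10 over both arms (adjusted p = 0.162). Upstream, the protease gene grass, which acts before Toll, rose by 0.12 per hour over both arms (SE 0.02, adjusted p = 0.0155). PGRP-LA and PGRP-LF, of the peptidoglycan recognition family, and dl, a Toll pathway transcription factor gene, had slopes in air of 0.11, 0.16 and 0.08 with adjusted p of 0.398, 0.451 and 0.459. Of 7 recognition genes and 20 signalling genes measured, 2 each sloped up in air at unadjusted p under 0.05, beside 9.04% of all genes.

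**Figure D4:**
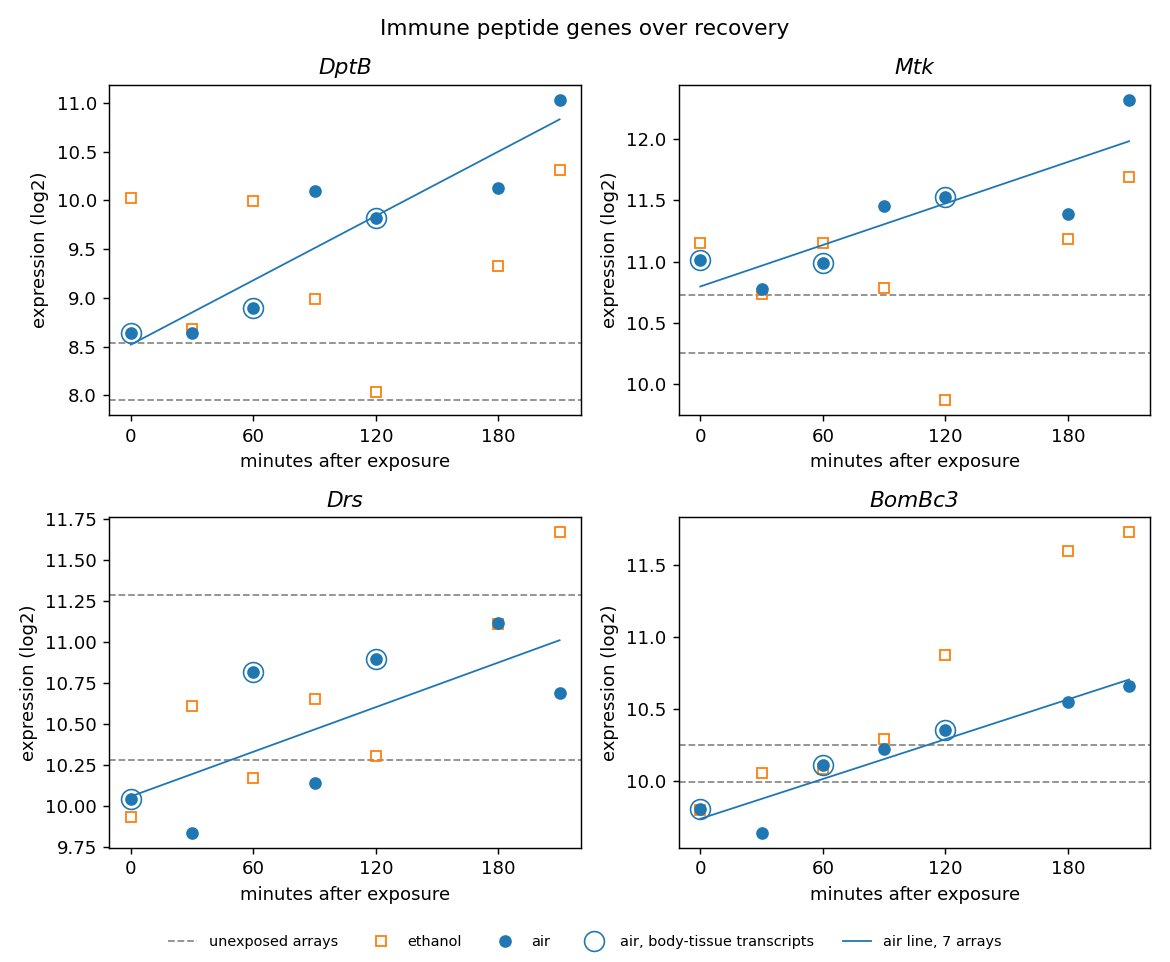
Expression in log2 of DptB, Mtk, Drs and BomBc3 against minutes after exposure in air (filled), ethanol (open squares) and 2 unexposed arrays (dashed), with the line through the 7 air arrays. DptB in air climbs from 8.64 to 11.03 while its ethanol values scatter between 8.04 and 10.31, and BomBc3 climbs in both arms.

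The secreted stress peptide genes named here did not pass in air. TotC, a Turandot gene induced by stress, stood at 9.74, 9.04, 11.03, 10.30, 10.52, 11.16 and 10.88 after air, with a slope of 0.43 over 7 arrays (adjusted p = 0.447) and 0.63 over 4. After ethanol its slope was -0.10. Diedel, a cytokine-like gene that limits Imd signalling, ran from 4.02 at 0 min to 5.52 at 210 min, close to the filter at log2 4, with slopes of 0.42 over 7 arrays and 0.49 over 4 (adjusted p = 0.23 and 0.947). Pxn, a peroxidasin gene made by hemocytes, rose over both arms by 0.25 per hour (adjusted p = 0.0111). It was the 1 of 17 hemocyte genes called, beside 3.58% of all genes that rose. Of the 17, 5 sloped up and 0 down at unadjusted p under 0.05 over both arms, with a median of 0.05. Of all 8110 genes 1110 sloped up and 389 down at that p. In air the list's median slope was 0.04 and that of Hml -0.01.

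Distance from unexposed heads was tested at both ends of the air line. At 0 min 2 genes stood apart from unexposed, both higher (0.0247%), with 555 at unadjusted p under 0.05 (6.84%). CG34134 (chromosome 2L) was measured at 10.55, 10.66, 10.23, 10.12, 9.65, 9.76 and 9.66 after air, while the unexposed arrays held 8.46 and 8.03. All 7 air arrays lay more than 1 log2 above both, and the first 4 lay above the last 3. The air line stood 2.33 above unexposed at 0 min (SE 0.19, adjusted p = 0.0050). After ethanol the levels ran from 10.76 to 9.73 with a low of 9.40, and the fall over both arms was -0.31 per hour (SE 0.05, adjusted p = 0.0073), with slopes of -0.30 in air and -0.32 after ethanol.

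CG10513 (chromosome 3R) stood at 9.35, 9.16, 9.28, 9.09, 8.89, 8.83 and 8.59 after air and 8.39 and 8.32 unexposed. It was 1.0 higher on the air line at 0 min (adjusted p = 0.0133) and had nearly reached the unexposed level by 210 min. Its slope in air was -0.20 (SE 0.03, adjusted p = 0.207), and that after ethanol was 0.00, with 9.37 at 210 min. Over the 4 arrays free of body tissue the same contrast called 0 genes, with adjusted p of 0.123 for CG34134 and 0.579 for CG10513.

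At 210 min 4 genes stood apart from unexposed heads, all higher (0.0493%), with 1084 at unadjusted p under 0.05 (13.4%). They were DptB, CG15282 and 2 probe sets without a single symbol. CG15282 stood between 8.70 and 9.49 after air and at 8.24 and 7.86 unexposed, 1.35 higher on the air line at 210 min (SE 0.16, adjusted p = 0.0416). The median gene was 0.12 above unexposed in this contrast and 0.0042 after quantile normalization, under which DptB kept 2.43 (adjusted p = 0.0772) and CG15282 1.22 (0.0487). Over the 4 arrays free of body tissue no gene was called (2.62 and adjusted p = 0.183 for DptB).

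**Figure D5:**
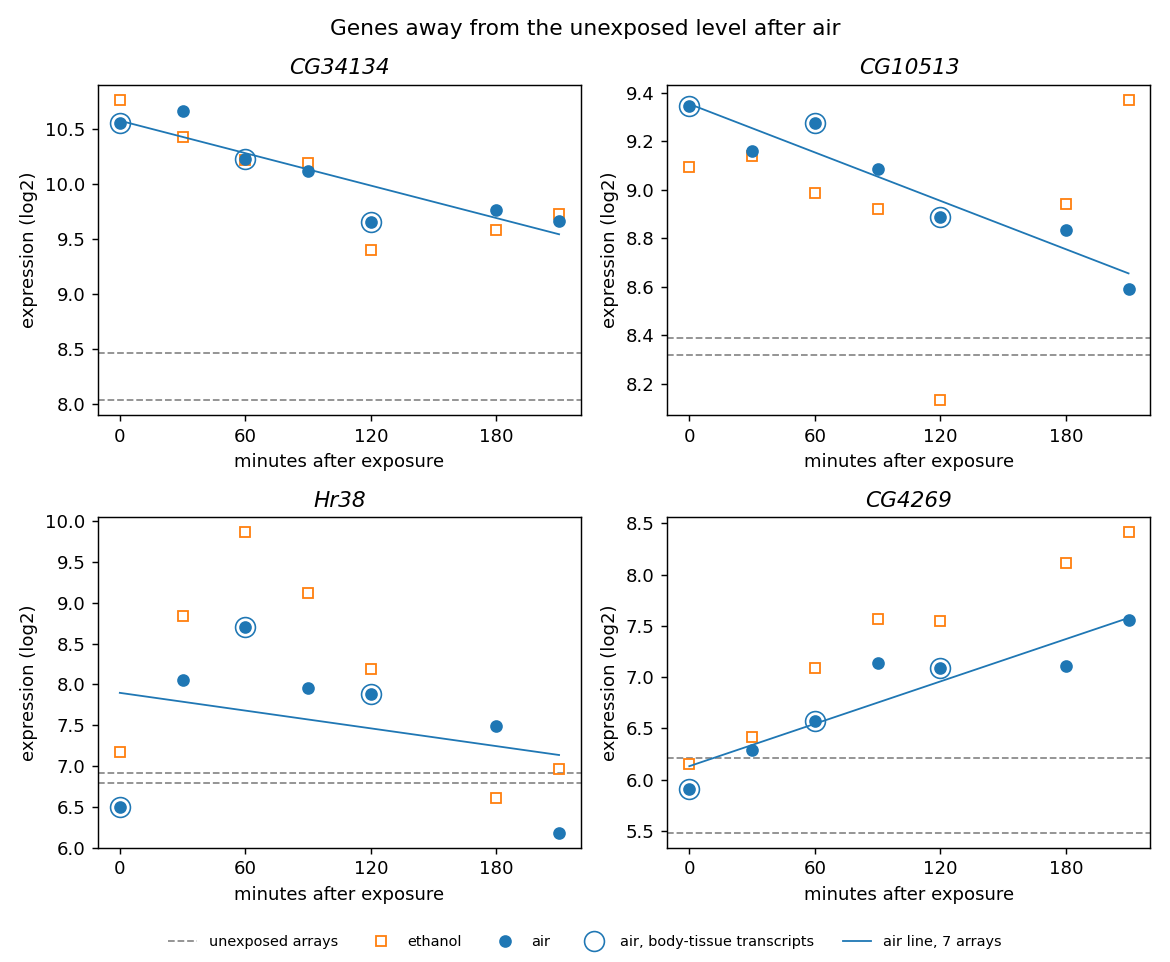
Expression in log2 of CG34134, CG10513, Hr38 and CG4269 against minutes after exposure in air (filled), ethanol (open squares) and 2 unexposed arrays (dashed), with the line through the 7 air arrays. CG34134 stays above both unexposed arrays throughout, CG10513 in air nears them, and Hr38 is highest at 60 min in both arms.

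Few activity-regulated genes had a slope in air at unadjusted p under 0.05. Hr38, an orphan nuclear receptor gene used as a marker of recent neuronal activity, stood at 6.49, 8.06, 8.71, 7.96, 7.89, 7.49 and 6.18 log2 after air and 6.92 and 6.79 unexposed. It was lowest at both ends and highest at 60 min, and the 5 values between lay above both unexposed arrays. After ethanol the values were 7.18, 8.83, 9.86, 9.12, 8.19, 6.6 and 6.97, also highest at 60 min but lowest at 180 min. The difference in shape between the arms was not tested. The slope in air was -0.22 over 7 arrays (adjusted p = 0.69) and -0.53 over 4 (unadjusted p = 0.0201), and a squared term of time, added after these values were seen, was -0.59 (adjusted p = 1.0), with 0 genes called and 278 at unadjusted p under 0.05. Hr38 was not tested at single times, since each has 1 array.

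The immediate-early factor gene sr stood at 6.61 at 0 min and between 6.77 and 7.28 later, and cbt, a zinc finger gene of the same early class, at 11.71 at 30 min and between 10.73 and 11.30 otherwise. Their slopes in air were 0.00 and -0.12. After ethanol cbt fell by 0.75 per hour (adjusted p = 0.0392) from 13.24 at 0 min, and the difference in slope did not pass (adjusted p = 0.154). Arc2, a relative of the synaptic Arc genes, ran from 5.58 at 0 min to 6.12 at 210 min (slope 0.13, unadjusted p = 0.0116). Arc1, kay, puc and Atf3 had slopes of 0.03, 0.08, -0.04 and -0.05 with unadjusted p of 0.467, 0.0709, 0.514 and 0.257. In the list, 1 of 17 sloped up and 0 down at unadjusted p under 0.05 in air, beside 9.04% and 1.1% of all genes, with a median slope of 0.01.

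Genes without a list place are given by their smallest p over the 7 air arrays, a choice made after their values were seen. CG13606 went from 5.02 at 0 min to 6.03 at 210 min in air, with a slope of 0.32 (adjusted p = 0.164). Its slope after ethanol was only 0.05 (limma adjusted p = 0.615). The shared slope of 0.19 passed (adjusted p = 0.0440), but a rise after ethanol was not seen. The difference in slope did not pass (-0.27, adjusted p = 0.107). Arpc1, a subunit gene of the actin-branching Arp2/3 complex, stood at 7.94, 7.92, 8.08, 8.03, 8.33, 8.61 and 8.79 after air, 8.41 and 8.25 unexposed, and rose over both arms by 0.29 per hour (SE 0.04, adjusted p = 0.0020). CG4269 stood at 5.91, 6.29, 6.57, 7.14, 7.08, 7.11 and 7.56 after air, against 6.21 and 5.48 unexposed. The first air value lay between the unexposed ones and the last 6 above both. CG4269 had a slope of 0.41 in air and 0.63 after ethanol, and its shared rise of 0.52 (SE 0.05) had an adjusted p of 0.00044. The tubulin gene betaTub60D rose by 0.29 (adjusted p = 0.0052), and Lsd-2, a lipid droplet perilipin gene, had a slope of 0.21 in air and did not pass over both arms (adjusted p = 0.0626).

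Among genes that sloped down in air, Jhe, which encodes juvenile hormone esterase, stood at 4.03, 4.52, 4.18, 4.23, 3.71, 3.25 and 2.69 after air and 4.39 and 3.96 unexposed. The last 3 values were the lowest and lay under the filter at log2 4. Jhe fell over both arms by 0.42 per hour (SE 0.08, adjusted p = 0.0117). VGlut, the vesicular glutamate transporter gene, stood at 6.44, 6.78, 5.85, 6.0, 4.25, 3.70 and 4.86 after air against 5.48 and 5.40, and fell over both arms by 0.60 (SE 0.15, adjusted p = 0.0406). Fmo-2, a flavin monooxygenase gene, and Tdh, a threonine dehydrogenase gene, had slopes of -0.17 and -0.23 in air and of -0.03 and 0.13 after ethanol.

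Over the 4 arrays free of body tissue the smallest p upward belonged to Sik2, Diedel, CG31704, CG42807 and CG13606, with slopes of 0.45, 0.49, 0.31, 0.31 and 0.35. Sik2, a salt-inducible kinase gene, stood at 5.42, 5.76, 6.39 and 6.84 at 30, 90, 180 and 210 min and rose over both arms by 0.28 per hour (adjusted p = 0.0102). The smallest p downward belonged to CG3348, Jhe, CG34134, CG1090 and CG15745, with slopes of -0.71, -0.61, -0.32, -0.30 and -0.38. CG3348 had the smallest adjusted p of all in this fit (0.54). It stood at 9.89, 9.37, 8.12 and 7.84 in these arrays, but at 9.01, 10.90 and 9.10 at 0, 60 and 120 min, so that its slope over 7 arrays was -0.57 with an SE of 0.21.

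Of 27 glutathione S-transferase genes 2 rose and 1 fell over both arms, and of 52 genes in the cytochrome P450 list 1 rose and 1 fell. Of all genes 3.58% rose and 0.691% fell on that slope. In air, 4 of the 27 sloped up at unadjusted p under 0.05, beside 9.04% of all genes. GstD2, of the oxidant-induced delta class, stood at 5.65, 6.04, 5.89, 6.62, 6.52, 7.08 and 6.79 after air, 6.32 and 6.04 unexposed, and rose over both arms by 0.48 per hour (SE 0.06, adjusted p = 0.0032). GstE6 rose by 0.16 (adjusted p = 0.0062). GstZ2, of the zeta class, fell by 0.37 (SE 0.08, adjusted p = 0.0194), with slopes in air of -0.22 over 7 arrays and -0.33 over 4. The 52 genes of the P450 list include the cyclophilin genes Cyp1 and Cyp40, which are not P450 genes. In air, 6 of the 52 sloped up at unadjusted p under 0.05, beside 9.04% of all genes. Among them were Cyp6w1 (0.20) and Cyp18a1, an ecdysteroid-inactivating enzyme gene (0.19), and neither passed over both arms. Cyp6d5 rose over both arms by 0.13 (adjusted p = 0.0257) and Cyp4ac1 fell by 0.26 (adjusted p = 0.0429). Their slopes were 0.10 and -0.07 in air and 0.17 and -0.45 after ethanol. The list's median slope of 0.04 was that of all genes. The ecdysone early gene br ran from 4.92 at 0 min to 6.54 at 210 min against 6.32 and 5.34 unexposed, and rose over both arms by 0.27 (adjusted p = 0.0178).

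Sesn, a stress-induced regulator of growth signalling, rose over both arms by 0.16 per hour (adjusted p = 0.0153). Of 15 chaperone genes 0 were called over both arms, and 6 sloped up and 0 down at unadjusted p under 0.05. Of all 8110 genes 1110 sloped up and 389 down at that p over both arms. In air, DnaJ-1 alone of the 15 had an unadjusted p under 0.05, beside 9.04% of all genes that sloped up. Its level went from 11.40 at 0 min to 11.89 at 210 min, with unexposed levels of 11.93 and 11.76. Its slope was 0.17 in air and -0.17 after ethanol, and the difference did not pass (-0.34, adjusted p = 0.0758). Of 15 tRNA synthetase genes 4 sloped up in air at unadjusted p under 0.05, beside 9.04% of all genes. They were AlaRS, LysRS, TyrRS and ValRS, by 0.12, 0.11, 0.07 and 0.14, and none passed in air or over both arms. Of 20 ion channel genes 5 sloped up in air at that p, beside 9.04% of all genes. Of these, Slob, the small-conductance potassium channel gene SK and the Shaker partner gene qvr passed over both arms, beside 3.58% of all genes that rose. Their shared slopes were 0.20, 0.14 and 0.19 (adjusted p = 0.0052, 0.0368 and 0.0166). Of 17 photoreceptor genes 3 rose and 0 fell over both arms, beside 3.58% and 0.691% of all genes. Among them eys, which builds the space between rhabdomeres, rose by 0.26 (adjusted p = 0.0159). Some lists had median slopes in air between 0.02 and 0.04 and 0 or few slopes at unadjusted p under 0.05. They were ribosomal proteins (0 of 33), mitochondrial ribosomal proteins (3 of 69), proteasome (1 of 26), oxidative phosphorylation (1 of 51), glycolysis (0 of 17) and neuropeptides (0 of 22). Of all genes, 9.04% sloped up and 1.1% down at that p.

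Whether a slope differed between air and ethanol was tested directly. The difference was called in 19 genes (0.234%), 3 with a higher slope after ethanol (0.037%) and 16 with a lower one (0.197%), and 978 had an unadjusted p under 0.05 (12.1%). The count was 0 without the arrays of 30, 180 or 210 min, 2 without those of 60 or 90 min, 19 without 0 min and 29 without 120 min. CG7227 stood at 5.96, 5.69, 5.41, 5.58, 5.58, 6.11 and 5.62 after air (slope 0.02) and went from 6.34 to 3.73 after ethanol, a difference in slope of -0.76 (SE 0.09, adjusted p = 0.0103). Tdc1, a tyrosine decarboxylase gene, lay between 6.54 and 6.89 in air (slope -0.03) and fell from 8.83 to 6.75 after ethanol. Pcyt2, of phosphatidylethanolamine synthesis, Cyp4d1 and CG46491 had slopes in air of 0.07, 0.11 and 0.09. CG7675 had a slope of 0.14 in air and 0.41 after ethanol. Over the 4 times whose air arrays were free of body tissue, 0 genes differed in slope (0%), with 447 at unadjusted p under 0.05 (5.51%). There the smallest p belonged to Gnmt, Tsr1 and sls upward and to DnaJ-1, CG46491 and CG7227 downward.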

How the data were processed

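Head RNA was measured on 16 Affymetrix Drosophila 2.0 arrays, 7 after air, 7 after ethanol and 2 unexposed. The deposited values are log2 expression that the authors obtained with GCRMA (version not stated), a tool named in the submitters' processing notes. GCRMA corrects background by probe sequence and normalizes arrays together, so a change in total RNA cannot be seen. The number of arrays limits the precision. All deposited sample columns were used.

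Of 18952 probe sets, 183 controls were left out; 13647 had 1 gene symbol, 402 several and 4720 none, matched by Entrez ID to RefSeq (Release 6 assembly). The probe set with the highest mean stood for a gene. Genes reaching log2 4 in at least 3 of 16 arrays were kept, 8110 of 17104, of which 7104 were named.

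Slopes, slope differences and contrasts with unexposed were fitted with limma 3.58.1 in R 4.3.3 (linear models, empirical Bayes), with Benjamini-Hochberg adjustment over all kept genes. Figures were drawn with matplotlib 3.10.9 and summaries made with pandas 2.3.3 under Python 3.11.15. The models were tested on simulated data. The 38 gene lists were written from general knowledge (11 entries matched no gene) and are given by counts and medians, with no set test. The members and lists were chosen with earlier results of these data known.

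Named were the largest called changes of each comparison, or the smallest p where none passed, every measured core clock, antimicrobial peptide and activity-regulated gene, and up to 4 members of other lists that passed; none passed in air alone, so other genes were chosen after their values were seen. Alternatives were other filters, scalings, probe set rules, variance models, array weights, ranked time, a body-tissue covariate, adjusted p under 0.1, the time point as a block, and leaving out arrays. The shared slope and its time block, the squared term and quantile normalization of the contrasts with unexposed were added after results were seen. Whether same-time air and ethanol arrays deviate together was checked. Their correlations over genes ran from -0.09 to 0.76. The fits without the block were kept because not every pair exceeded 0.1. The pairs below 0.1 were those of 0 and 60 min, where only the air array carried body tissue. At 120 min (0.76) both arrays carried it, and at 30, 90, 180 and 210 min the correlations were 0.287 to 0.355. These values therefore do not show that same-time arrays are independent, and calls without the block rest on that assumption.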

Additional observations from a re-analysis of the deposited data

Results flagged for a closer look

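Among the core clock, antimicrobial peptide and activity-regulated genes and the genes named from the comparisons, 3 air values stood far from the other 6 of their gene. Dixon's test was applied to the highest and lowest air value of each gene. It flags about 1 in 20 groups by chance, and whether 3 flags exceed that was not tested. Arc2 at 0 min was the lowest at 5.58 log2, and kay at 0 min the lowest at 11.64. The highest vri value, 11.57, was that of the 180 min array, in which the median gene stood 0.22 above unexposed.

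The slope per hour differed between ethanol and air in 6 named genes. The difference, ethanol minus air, was -0.76 for CG7227 (adjusted p = 0.0103), -0.62 for Tdc1 (0.0223), -0.57 for Cyp4d1 (0.0469), -0.55 for CG46491 (0.0163) and -0.53 for Pcyt2 (0.0103). For CG7675 it was 0.27 (adjusted p = 0.0477). All are limma values over 14 arrays. The number of genes with such a difference, 19 in all, was 0 without the arrays of 30, 180 or 210 min and 2 without those of 60 or 90 min.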

How the results depend on the processing

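In air alone no alternative called more than 1 gene. The 7-array count of 0 became 1 with no filter, and lay between 0 and 1 with each array left out (1 without the 30 min array, a probe set with no symbol). The 4-array count stayed at 0 under all 11 alternatives. For the slope difference (19 genes), no filter gave 5, and the time point as a replicate block gave 55 (6 higher, 49 lower). Leaving out 1 time gave 0 to 29: 0 without 30, 180 or 210 min, 2 without 60 or 90 min, 29 without 120 min. Over 4 times it stayed at 0 with the replicate block. No paired analysis was possible for the slopes within air because each time has 1 air array. After ethanol 262 became 163 without 120 min and 69 with no filter. Against unexposed, both counts became 0 with 4 air arrays, and the 210 min count became 2 (1 higher, 1 lower) with quantile normalization. The shared slope (346) gave 121 (83 higher, 38 lower) without the 4 body-tissue arrays, 0 over 8 arrays, 33 (22 higher, 11 lower) with the time point as a replicate block, 166 with no filter and 540 (494 higher, 46 lower) with median scaling. With 1 array left out it ran from 53 (without ethanol 210 min) to 414, with 193 without air 30 min and 203, 216 and 138 without ethanol 30, 60 and 180 min. Same-time arrays correlated best with each other at 5 of 7 times, the exceptions being 0 and 60 min, where the air array alone carries body tissue. Fewer arrays enter the fits that leave arrays out, and no filter tests 17104 genes; other causes were not tested. No named direction reversed in a called value. Genes near log2 4 lie close to background.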

Other observations

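The number of genes 1 log2 or more from the unexposed mean was 158, 35, 124, 39, 187, 63 and 90 in the air arrays from 0 to 210 min, and 5 genes differed that much between the unexposed arrays. The 3 highest counts were those of the arrays with body-tissue transcripts. Among genes named after their values were seen, fit, a peptide gene of the head fat body, stood at 9.75, 9.16, 8.75, 9.09, 8.17, 8.12 and 8.63 log2 after air and at 9.34 and 9.35 unexposed. It fell over both arms by 0.39 per hour (SE 0.08, limma adjusted p = 0.0155). CG8306 went from 9.36 at 0 min to 10.13 at 210 min after air and rose over both arms by 0.23 per hour (SE 0.02, adjusted p = 0.00044).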
